A study of Mus musculus with 23 samples.

Results

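Transcripts of 35 cell cycle and replication genes were followed in C57BL/6 mice after 8 weeks of oxaliplatin or vehicle, in hypothalamus, tibialis anterior muscle and subcutaneous white fat. The genes were chosen by symbol: 13 act around S phase, when DNA is copied, and 22 act in G2 phase and mitosis, when the copies are separated. All 35 were found in each of the 3 count tables, of 20628 genes (muscle), 26702 genes (fat) and 25623 genes (hypothalamus). The S phase genes were Mcm2, Mcm3, Mcm4, Mcm5, Mcm6, Mcm7, Pcna, Rrm1, Rrm2, Tyms, Cdc6, Cdt1 and E2f1. The mitotic genes were Mki67, Top2a, Ccna2, Ccnb1, Ccnb2, Cdk1, Cdc20, Bub1, Bub1b, Aurka, Aurkb, Plk1, Birc5, Cenpa, Cenpe, Kif11, Kif20a, Tpx2, Ube2c, Cdca8, Prc1 and Nusap1.

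Oxaliplatin, a platinum drug that forms crosslinks in DNA, was given at 10 mg/kg, and the comparison asks how it altered transcripts in each tissue. Muscle gave 5 oxaliplatin and 4 vehicle libraries, and fat and hypothalamus gave 4 oxaliplatin and 3 vehicle libraries each, for 23 in total, with 1 mouse per library. Within each list of values the mice stand in number order: oxaliplatin mice 1 to 5 and vehicle mice 1 to 4 in muscle, oxaliplatin mice 2, 3, 4 and 5 and vehicle mice 1, 2 and 4 in the other tissues. All mice were of 1 inbred strain and differ, per the labels, only in the agent. The labels used here do not give their age, and they do not say how often or by which route the drug was given. For muscle oxaliplatin mouse 5, so named in its title, the treatment field names vehicle. This library was grouped by its title, and its Cdkn1a level is given beside those of the other libraries. The p-values measure the spread between these samples.

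A cell prepares for replication by loading the MCM helicase onto origins with Cdc6 and Cdt1, then copies DNA with the sliding clamp Pcna and with nucleotides that ribonucleotide reductase and thymidylate synthase supply. Mitotic genes follow later, under the kinase Cdk1 and its B-type cyclins, and are silent in cells that have left the cycle. Muscle fibres, fat cells and neurons are such resting cells, and cycling cells in such tissues are usually a minority, among them leukocytes, progenitors, vessel cells and glia. The genes of both phases are held down by E2F and DREAM complexes when p53 induces the inhibitor p21, the product of Cdkn1a.

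The sets differ in their promoters as well as in their timing, and 5 promoters are shown to make that difference visible. Promoter windows of RefSeq (GRCm38.p6, 250 bases before to 50 bases after each start) were matched to 30 of the 35 members. Both strands were searched. The E2F core was read as TTCCCGC, with the variant TTGGCGC, the variant TTCGCGC and the variant TTGCCGC. The cell cycle homology region or CHR was read as TTTGAA with the variant TTCGAA, and the CCAAT box as CCAAT. An E2F match can overlap another E2F match, and its CCAA end on the other strand can share bases with a CCAAT match. An E2F core was found in 9 of 13 S phase windows (69.2%) and 3 of 19 mitotic windows (15.8%), against 9.57% of all 32851 windows. A CHR was found in 2 of 13 S phase windows (15.4%) and 15 of 19 mitotic windows (78.9%), against 19.2% of all windows. A CHR together with a CCAAT box was found in the same number of mitotic windows, 15 of 19, against 7.52% of all windows. The 200 bases before the start of 2 helicase genes and 3 mitotic genes read as follows, 5′ to 3′ on the gene's strand, with the motifs in capitals. Mcm5 and Mcm6 are subunits of the replicative helicase. Mki67 encodes the proliferation marker Ki-67, Top2a the topoisomerase that untangles chromosomes, and Kif11 the motor that pushes spindle poles apart.
Mcm5 (chr8:75109309-75109508, plus strand): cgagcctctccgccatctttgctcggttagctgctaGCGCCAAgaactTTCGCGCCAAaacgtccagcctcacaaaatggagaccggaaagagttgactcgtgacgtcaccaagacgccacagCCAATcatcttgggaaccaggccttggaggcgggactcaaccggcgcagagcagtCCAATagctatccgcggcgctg
Mcm6 (chr1:128359706-128359905, minus strand): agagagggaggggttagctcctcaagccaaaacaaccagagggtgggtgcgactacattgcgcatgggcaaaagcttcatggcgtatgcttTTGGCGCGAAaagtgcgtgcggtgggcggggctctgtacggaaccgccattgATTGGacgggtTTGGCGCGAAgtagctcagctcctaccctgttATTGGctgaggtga
Mki67 (chr7:135716380-135716579, minus strand): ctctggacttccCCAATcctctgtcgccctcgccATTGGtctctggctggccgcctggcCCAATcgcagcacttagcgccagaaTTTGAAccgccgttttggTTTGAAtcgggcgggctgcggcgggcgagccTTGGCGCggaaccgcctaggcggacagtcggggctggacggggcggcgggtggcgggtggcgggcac
Top2a (chr11:99024190-99024389, minus strand): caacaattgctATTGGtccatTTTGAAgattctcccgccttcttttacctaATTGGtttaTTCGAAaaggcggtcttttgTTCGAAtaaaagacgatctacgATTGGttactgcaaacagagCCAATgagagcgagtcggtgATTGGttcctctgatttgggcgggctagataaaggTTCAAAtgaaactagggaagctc
Kif11 (chr19:37376182-37376381, plus strand): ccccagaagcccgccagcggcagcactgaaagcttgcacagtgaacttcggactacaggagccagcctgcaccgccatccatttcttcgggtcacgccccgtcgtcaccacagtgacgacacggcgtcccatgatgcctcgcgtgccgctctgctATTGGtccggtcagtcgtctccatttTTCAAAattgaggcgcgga
The Mcm5 stretch holds 3 E2F cores and no CHR, and the Mcm6 stretch 4 and none. The Top2a stretch holds 4 CHR matches and 5 CCAAT boxes with no E2F core. The Mki67 stretch holds all 3 kinds, with 2 CHR matches, 3 CCAAT boxes and 1 E2F core, and the Kif11 stretch holds 1 CHR and 1 CCAAT box. These are matches of letters, not measured sites.

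Total counts, in units of 1000000 (M), were 22.4 to 32.2 M per muscle library, 16.5 to 22.7 M in fat and 23.6 to 28.5 M in hypothalamus, where the deepest oxaliplatin library (26.4 M) held fewer counts than the shallowest vehicle library (27.3 M). Levels are given as CPM, counts scaled to 1000000 in each library after TMM scaling, changes as log2 of the ratio of oxaliplatin to vehicle with ± SE, and p as edgeR quasi-likelihood p-values adjusted by Benjamini-Hochberg over all tested genes of a tissue. The labelled tissues carried their own markers: 8 muscle fibre genes summed to 130021 to 175079 CPM in muscle, 8 adipocyte genes to 12282 to 19929 CPM in fat, and 8 neuronal genes to 2153 to 3032 CPM in hypothalamus. Muscle libraries were made with another kit than the rest, so levels are not compared across tissues. The 13 S phase genes summed to only 82.1 to 128 CPM in the vehicle libraries of muscle. A count of 0 allows a level of up to 0.0847 to 0.150 CPM in the muscle libraries (3 counts, counting error only). In bulk tissue, fewer cells of a type and less RNA per cell cannot be told apart.

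Ube2c, the ubiquitin-conjugating enzyme of the anaphase-promoting complex, is reported as uncertain. Its exons share 592 bases with Tnnc2 on the other strand, the fast skeletal troponin C, and Ube2c was 146 to 245 CPM in the muscle libraries, where it was the most abundant member per kilobase (79.4 CPM per kb with vehicle, against 5.11 for Pcna, the next). In fat it was 1.03, 1.81, 0.624 and 5.16 CPM with oxaliplatin and 2.13, 0.922 and 65.7 CPM with vehicle. The high library, vehicle mouse 4, also held muscle fibre transcripts, which summed to 1303, 15.7 and 122135 CPM in vehicle mice 1, 2 and 4. A further 9 members share exon bases with a neighbour, with 1271 bases for Kif20a and Cdc23, 911 for Prc1 and Rccd1, 510 for Ccna2 and Exosc9, and 321 for Mcm7 and Ap4m1.

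In fat, 4 of 13 S phase genes were higher in every oxaliplatin library than in every vehicle library. The mean level of the mitotic genes lay below the vehicle mean in oxaliplatin mice 2, 3 and 4 and above it in mouse 5. The arms were apart in 0 mitotic genes. Vehicle mouse 4 lay below these 3 oxaliplatin mice in Mki67 and Top2a, and above them in Aurka and Nusap1. The helicase subunit Mcm7 averaged 2.30-fold the vehicle level and the licensing factor Cdt1 2.22-fold. Neither passed the edgeR test over all genes. Oxaliplatin mouse 5 had the highest level of 21 of 22 mitotic genes and 11 of 13 S phase genes, against 15.2% of all genes of the table that were highest there. The edgeR test called 0 of 13 S phase genes and 0 of 21 tested mitotic genes, and 0% of all 19870 tested genes. At an unadjusted p under 0.05 there were 4 S phase genes (all higher) and 1 mitotic gene (Ube2c, lower), where 13.4% of all tested genes were higher and 12.7% lower. DESeq2 called 2 members, Cdt1 and Mcm7, against 12.1% of the genes it tested, and limma-voom called 0.

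**Figure D1:**
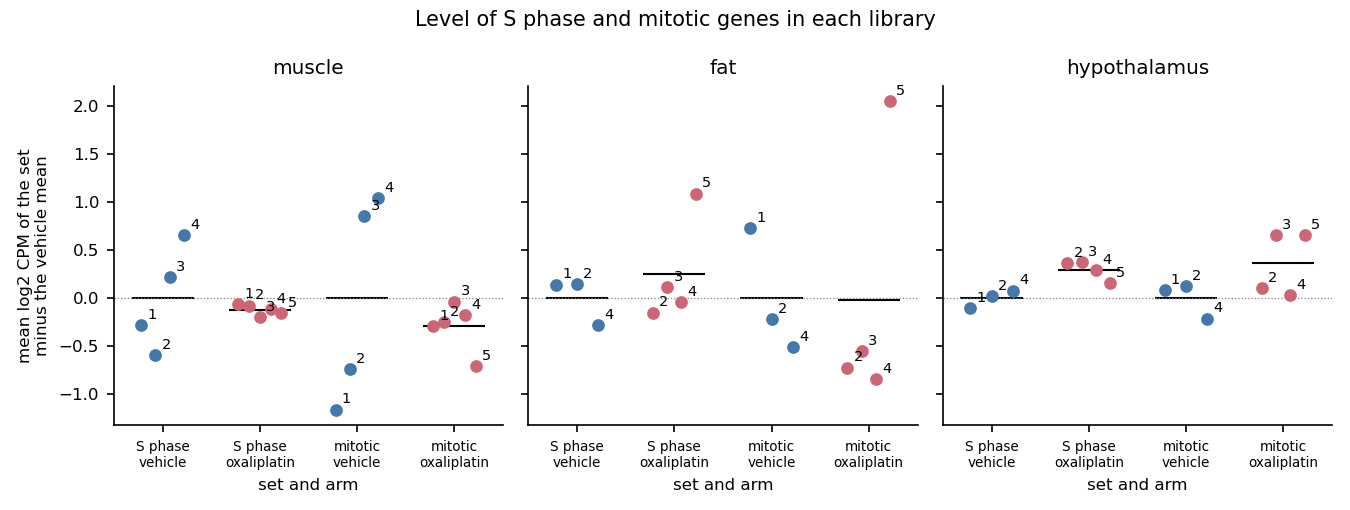
Level of each set in each library: the mean log2 CPM of the 13 S phase or 22 mitotic genes minus the vehicle mean of the same tissue (y axis), by set and arm (x axis), with the mouse number beside each point and the arm mean as a line. In fat, oxaliplatin mouse 5 stands at 2.05 for the mitotic set and the other oxaliplatin mice between -0.84 and -0.55, and in muscle vehicle mice 3 and 4 stand at 0.85 and 1.04.

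Among the helicase subunits of fat, only Mcm7 had arms that did not overlap. Mcm7, which also hosts a microRNA cluster in an intron, was 58.7, 52.9, 37.3 and 27.5 CPM with oxaliplatin and 19.5, 21.6 and 16.4 CPM with vehicle. All 4 oxaliplatin libraries lay above all 3 vehicle libraries, with mouse 5 the lowest of the 4 (1.20 ± 0.27, adjusted p = 0.114). Mcm7 (ENSMUSG00000029730) lies on chromosome 5 from 138164583 to 138172422, minus strand (GRCm38). Mcm2 was 4.75, 7.23, 6.14 and 19.7 CPM with oxaliplatin and 7.13, 10.4 and 10.7 CPM with vehicle, so mice 2, 3 and 4 were near or below the vehicle range and mouse 5 was above it (0.01 ± 0.50, adjusted p = 0.993). Mcm5 was 4.27, 5.97, 4.51 and 18.4 CPM with oxaliplatin and 6.73, 6.05 and 4.72 CPM with vehicle, again with mouse 5 alone above the vehicle range (0.51 ± 0.55, adjusted p = 0.569). Mcm3, Mcm4 and Mcm6 gave 0.48 ± 0.39, 0.25 ± 0.27 and 0.37 ± 0.29, and each had its highest library in mouse 5.

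Among the other S phase genes of fat, Cdt1, Pcna and Tyms had arms that did not overlap. Cdt1, which loads the helicase with Cdc6, was 7.24, 7.51, 5.04 and 9.80 CPM with oxaliplatin and 3.60, 4.09 and 2.31 CPM with vehicle. The arms did not overlap (1.15 ± 0.30, adjusted p = 0.117). Its partner Cdc6 was 0.702, 1.86, 1.68 and 3.87 CPM with oxaliplatin and 3.06, 2.13 and 1.48 CPM with vehicle, with overlapping arms (-0.13 ± 0.54, adjusted p = 0.889). The clamp Pcna was 31.2, 30.1, 25.4 and 31.1 CPM with oxaliplatin and 23.5, 22.8 and 18.5 CPM with vehicle, and Tyms, thymidylate synthase, was 6.64, 5.32, 6.62 and 7.75 CPM with oxaliplatin and 4.26, 5.19 and 3.08 CPM with vehicle. In both genes the arms were apart, by a narrow margin in Pcna (log2 fold change 0.45 ± 0.14, adjusted p = 0.128) and in Tyms (0.66 ± 0.24, adjusted p = 0.152). Arms apart and higher were found in 8.96% of all genes of the fat table, and lower in 9.62%.

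Rrm2 and E2f1 were high in mouse 5 alone of the oxaliplatin arm. Rrm2, the cell cycle regulated subunit of ribonucleotide reductase, was 1.13, 1.32, 1.54 and 13.3 CPM with oxaliplatin and 4.73, 2.25 and 1.10 CPM with vehicle, so only mouse 5 was above vehicle mouse 1 (0.68 ± 1.02, adjusted p = 0.679). Rrm1, the other subunit, gave 0.19 ± 0.21. The transcription factor E2f1 was 2.48, 2.52, 2.59 and 12.4 CPM with oxaliplatin and 7.80, 7.61 and 7.03 CPM with vehicle, with mice 2, 3 and 4 at a near equal level below every vehicle mouse and mouse 5 above them all (-0.58 ± 0.62, adjusted p = 0.563).

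Mitotic genes of fat differed more between mice of an arm than between arms. Mki67 was 7.67, 9.26, 7.06 and 106 CPM with oxaliplatin and 35.6, 14.2 and 5.71 CPM with vehicle (0.81 ± 1.15, adjusted p = 0.666). Top2a was 2.16, 2.14, 2.40 and 33.6 CPM with oxaliplatin and 11.5, 5.19 and 2.09 CPM with vehicle (0.69 ± 1.17, adjusted p = 0.718). Mouse 5 was the highest library of both, vehicle mouse 1 came next and vehicle mouse 2 after it. The kinase Cdk1 was 0.594, 0.822, 0.528 and 5.81 CPM with oxaliplatin and 2.80, 1.44 and 0.494 CPM with vehicle, and its cyclin Ccnb1 was 0.216, 0.329, 0.192 and 4.11 CPM with oxaliplatin and 1.80, 1.04 and 0.330 CPM with vehicle. These gave 0.30 ± 1.0, adjusted p = 0.865 and 0.19 ± 1.18, adjusted p = 0.928. Mki67 (ENSMUSG00000031004) lies on chromosome 7 from 135689784 to 135716361, minus strand.

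After Ube2c, the smallest p of the mitotic set were those of Bub1b, Prc1, Birc5 and Ccnb2, and none passed. Bub1b, the checkpoint kinase BubR1, was 3.35, 4.60, 6.34 and 11.6 CPM with oxaliplatin and 4.53, 2.25 and 1.43 CPM with vehicle (1.24 ± 0.54, adjusted p = 0.198). It was the only mitotic gene with all 4 oxaliplatin mice above the mean of the vehicle mice, though vehicle mouse 1 lay within the oxaliplatin range. Prc1, which bundles microtubules at the spindle midzone, was 3.19, 4.00, 3.94 and 14.7 CPM with oxaliplatin and 6.20, 3.69 and 1.59 CPM with vehicle (0.76 ± 0.68, adjusted p = 0.487). Birc5, survivin of the chromosomal passenger complex, was 0.486, 0.548, 0.432 and 6.75 CPM with oxaliplatin and 1.60, 0.692 and 0.330 CPM with vehicle (1.23 ± 1.17, adjusted p = 0.511). Ccnb2, the second B-type cyclin, was 0.540, 0.493, 0.528 and 4.52 CPM with oxaliplatin and 1.47, 0.461 and 0.385 CPM with vehicle (0.98 ± 1.0, adjusted p = 0.541), and Nusap1, a spindle-associated protein, 1.35, 1.32, 1.97 and 6.22 CPM with oxaliplatin and 3.86, 3.11 and 2.20 CPM with vehicle (-0.17 ± 0.59, adjusted p = 0.866). In Birc5 and Ccnb2 mice 2, 3 and 4 lay inside the vehicle range, and in Nusap1 below it, beside 1 high value in mouse 5. The summaries of the mitotic set differ in sign. The fitted change was above 0 in 19 of the 21 tested genes, with a median of 0.47, where 52.4% of all tested genes were above 0. The difference of mean log2 CPM was above 0 in 10 of all 22, with a median of -0.09, where 51.7% of all genes were above 0. For the S phase genes these counts were 11 of 13 (median 0.45) and 10 of 13 (median 0.23).

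**Figure D2:**
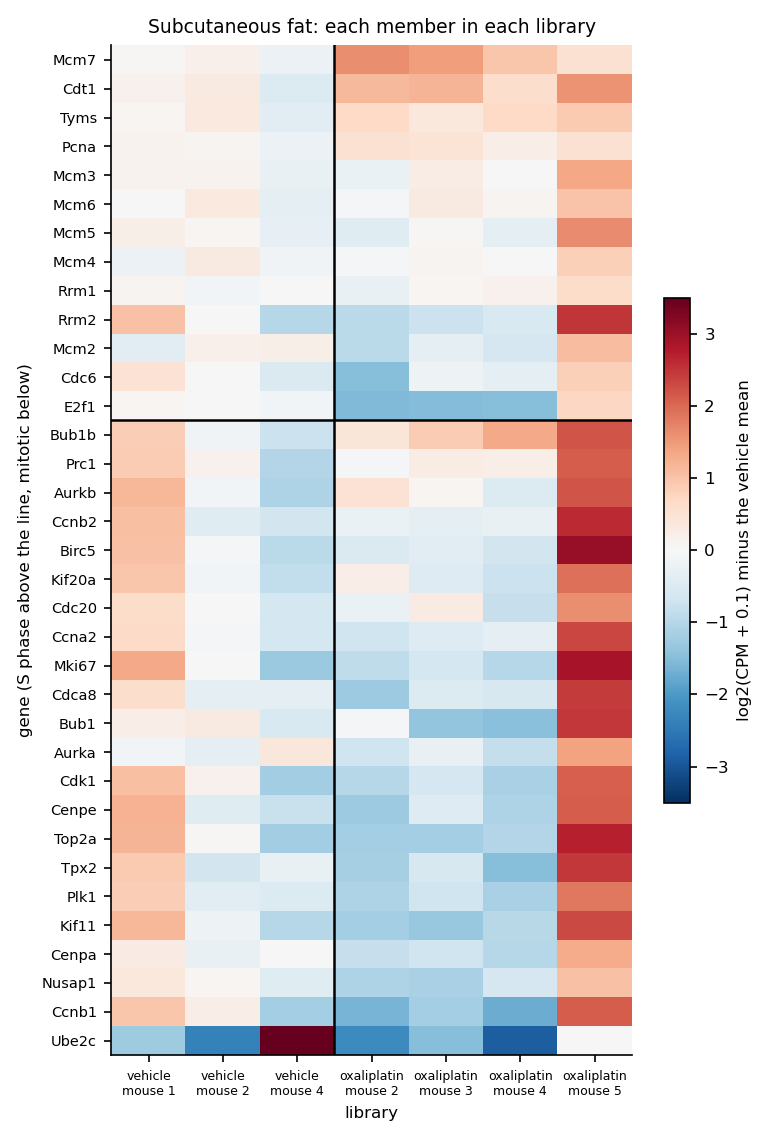
Each of the 35 members (y axis, S phase genes above the line) in each of the 7 fat libraries (x axis), as log2(CPM + 0.1) minus the mean of the vehicle libraries, with colours limited at ±3.5. The column of oxaliplatin mouse 5 is above the vehicle mean nearly throughout, and Mcm7, Cdt1, Tyms and Pcna are above it in all 4 oxaliplatin columns.

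Oxaliplatin mouse 5 also stood apart in genes outside the set. Its B cell genes (8 markers) summed to 238 CPM, against 3.51 to 46.3 CPM in the other 6 libraries, its T cell genes to 70.6 CPM (others 5.99 to 38.4) and its neutrophil and marrow myeloid genes to 69.7 CPM. The latter were also higher in the rest of the arm, at 7.45 to 13.1 CPM in oxaliplatin mice 2, 3 and 4 against 1.32 to 2.02 CPM in vehicle mice. The arms were apart and higher in 5 of 7 of these genes, against 8.96% of all genes. Fibroblast and adipocyte progenitor genes summed to 640.4, 1088, 936 and 9214 CPM in oxaliplatin mice and 4671, 6603 and 6071 CPM in vehicle mice, so mouse 5 was the highest of the 7 libraries and mice 2, 3 and 4 the lowest. Cdkn1a in mouse 5 was the lowest of the oxaliplatin arm. The part of these cell types in the levels of the members was not tested.

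Without oxaliplatin mouse 5, most mitotic genes had a negative change in fat. The library left out was the highest in 21 of 22 mitotic genes, so lower changes follow in part from its removal. The edgeR test then called 4 members, where 25.5% of all 19472 tested genes were called (12% higher, 13.5% lower). Mcm7 (log2 fold change 1.37 ± 0.19, adjusted p = 0.00364) and Cdt1 (0.98 ± 0.28, adjusted p = 0.0389) were higher, and E2f1 (-1.56 ± 0.18, adjusted p = 0.00176) and the centromeric histone Cenpa (-0.88 ± 0.24, adjusted p = 0.0327) were lower. Of the 19 mitotic genes tested, 1 had a change above 0, with a median of -0.88 against 0.01 over all tested genes. The S phase genes had a median of -0.01, with 6 of 13 above 0. The arms did not overlap in 4 S phase genes that were higher (19.6% of all genes) and in 5 mitotic genes and 1 S phase gene that were lower (19.7%). The share of 5 in 22 mitotic genes is near that of all genes, and the members called are no larger a share than the background.

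With vehicle mouse 4 left out as well, the library that held muscle transcripts, 9 members were called, against 20.1% of 20332 tested genes (8.57% higher, 11.5% lower). This alternative was chosen after seeing the data and leaves 3 oxaliplatin and 2 vehicle libraries. Oxaliplatin mouse 5 was the highest library in 21 of 22 mitotic genes. Vehicle mouse 4 was the lowest vehicle library for Mki67 (5.71 CPM), Top2a (2.09 CPM), Cdk1 (0.494 CPM) and Ccnb1 (0.330 CPM). Lower values of such genes follow in part from the choice, so the counts below do not test a fall. Mcm7 was higher (1.27 ± 0.21, adjusted p = 0.0116). Mki67 (-1.64 ± 0.37, adjusted p = 0.0298), Top2a (-1.89 ± 0.35, adjusted p = 0.0152), Cdk1 (-1.70 ± 0.42, adjusted p = 0.0347), Ccnb1 (-2.50 ± 0.48, adjusted p = 0.0167), Kif11, Nusap1, Rrm2 and E2f1 were lower. The arms were apart and lower in 13 of 22 mitotic genes, against 24.7% of all genes, while 4 of 13 S phase genes were apart and lower and 4 apart and higher, the latter against 24.1%. Cdt1 gave 0.77 ± 0.26, adjusted p = 0.0781 here. Leaving out vehicle mouse 4 alone called 0 members and 0% of all tested genes.

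**Figure D3:**
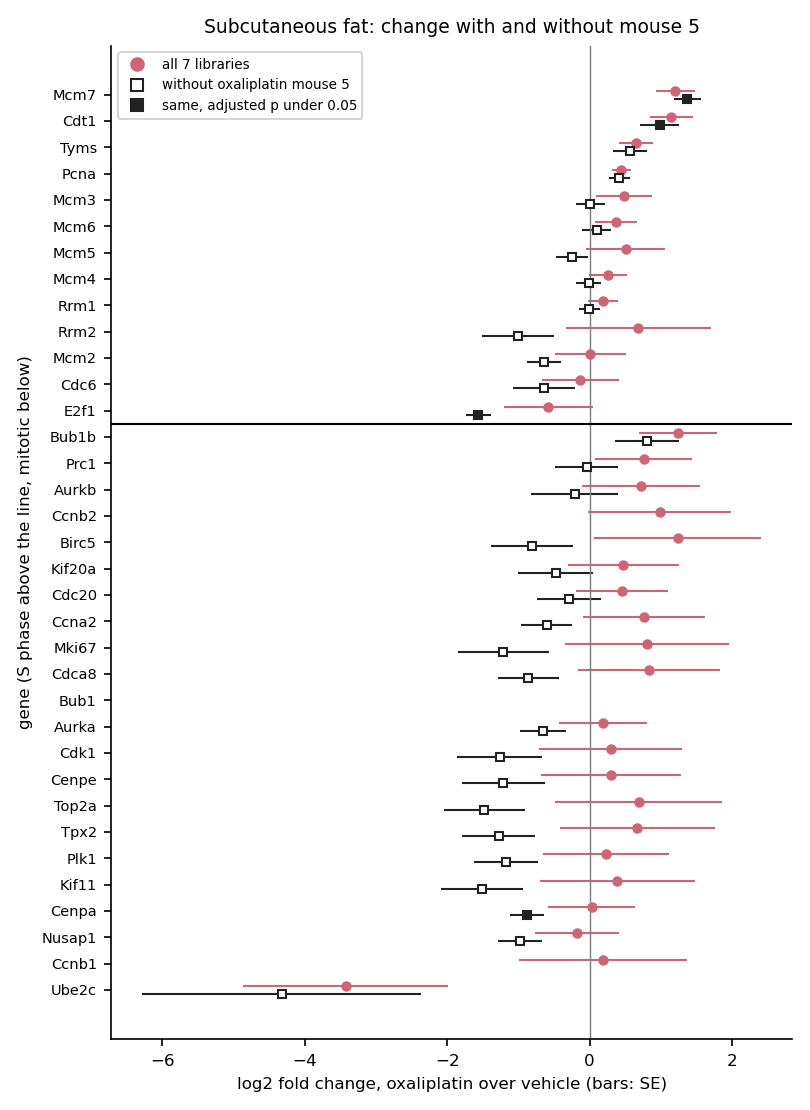
Log2 fold change of each tested member in fat (x axis, bars are SE) with all 7 libraries (circles) and without oxaliplatin mouse 5 (squares, filled where the adjusted p is under 0.05). Mcm7, Cdt1, Pcna and Tyms stay right of 0 in both, while Mki67, Top2a and Kif11 move from right to left of 0.

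In muscle, the mean level of the mitotic set was highest in vehicle mice 3 and 4 and lowest in vehicle mice 1 and 2, with the 5 oxaliplatin mice between them, an order that single genes such as Kif11, Nusap1 and Cenpa did not all share. The edgeR test called 0 of 12 tested S phase genes and 0 of 13 tested mitotic genes, against 0.163% of all 14737 tested genes. At an unadjusted p under 0.05 there were 2 S phase genes, Cdc6 and Rrm2, both lower, where 4.79% of all tested genes were lower. DESeq2 and limma-voom called 0 members, against 1.49% and 0.0882% of the genes they tested. In none of the 35 genes were the arms apart, against 1.81% of all genes higher and 1.62% lower. The difference of mean log2 CPM had a median of -0.04 for the S phase genes (3 of 13 above 0) and -0.26 for the mitotic genes (6 of 22 above 0), where 48.8% of all genes were above 0. The fitted change was above 0 in 1 of 12 and 1 of 13 tested genes, where 47.8% of all tested genes were. Without the library titled mouse 5, edgeR called 0 members, against 0.0552% of 14482 tested genes.

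The licensing factor Cdc6 was 0.656, 0.203, 1.12 and 1.44 CPM in the vehicle arm and 0.459, 0.397, 0.150, 0.379 and 0.208 CPM in the oxaliplatin arm, with vehicle mice 3 and 4 the highest and vehicle mouse 2 within the oxaliplatin range (-1.42 ± 0.51, adjusted p = 0.362). Rrm2 was 2.38, 0.895, 5.38 and 6.47 CPM in the vehicle arm and 1.80, 1.67, 1.85, 1.99 and 1.48 CPM in the oxaliplatin arm, with the same 2 mice highest (-1.12 ± 0.43, adjusted p = 0.417). Mcm5 was 0.656, 1.02, 1.57 and 3.25 CPM in the vehicle arm and 0.787, 1.31, 1.40, 1.17 and 1.19 CPM in the oxaliplatin arm (-0.50 ± 0.40, adjusted p = 0.792), where vehicle mouse 4 alone stood out. Cdt1 was 0.369, 0.529, 0.628 and 0.480 CPM in the vehicle arm and 0.426, 0.476, 0.550, 0.347 and 0.386 CPM in the oxaliplatin arm (-0.21 ± 0.33, adjusted p = 0.922). Mcm6 was 1.15, 2.44, 3.87 and 4.46 CPM in the vehicle arm and 3.54, 3.53, 3.70, 2.24 and 3.18 CPM in the oxaliplatin arm and had the largest positive change of the set (0.10 ± 0.32, adjusted p = 0.977). Mcm2 was 5.08, 3.54, 9.11 and 5.93 CPM in the vehicle arm and 4.85, 5.91, 5.30, 7.29 and 5.64 CPM in the oxaliplatin arm (-0.03 ± 0.23, adjusted p = 0.993). Its 5 oxaliplatin values fall within the vehicle range, as they do for Mcm5.

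Pcna was steady across the muscle libraries, at 12.8, 11.0, 11.4 and 13.8 CPM in the vehicle arm and 11.8, 11.9, 12.8, 10.9 and 12.5 CPM in the oxaliplatin arm (-0.03 ± 0.11, adjusted p = 0.979). Rrm1 gave -0.01 ± 0.11 and Mcm7 -0.11 ± 0.20. E2f1, below the count filter, was 0.164, 0, 0.140 and 0.650 CPM in the vehicle arm and 0.492, 0.317, 0.200, 0.284 and 0.119 CPM in the oxaliplatin arm. Among S phase genes the highest library was vehicle mouse 4 for 11 of 13 and vehicle mouse 3 for the other 2, where 19.8% and 11.8% of all genes were highest.

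Mki67 was 0, 0.0814, 2.06 and 2.97 CPM in the vehicle arm and 0.590, 0.436, 0.850, 1.29 and 0.326 CPM in the oxaliplatin arm (-0.90 ± 0.95, adjusted p = 0.87). In counts, vehicle mice 3 and 4 had 59 and 105 and vehicle mice 1 and 2 had 0 and 2. Top2a was 0.0410, 0.122, 2.02 and 2.94 CPM in the vehicle arm and 0.820, 0.674, 1.20, 1.20 and 0.237 CPM in the oxaliplatin arm (-0.68 ± 0.87, adjusted p = 0.9), and again both extremes of the 9 libraries were vehicle mice. Cdk1 was 0, 0.122, 0.384 and 0.932 CPM in the vehicle arm and 0.131, 0.119, 0.500, 0.473 and 0.0890 CPM in the oxaliplatin arm (-0.57 ± 0.82, adjusted p = 0.917). Ccnb1, below the filter, was 0, 0.0814, 0.524 and 1.19 CPM in the vehicle arm and 0.197, 0.119, 0.300, 0.505 and 0 CPM in the oxaliplatin arm.

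Kif11, Kif20a, Cenpa and Nusap1 had the smallest p of the mitotic genes, and none passed. Kif11, the spindle motor shown above, was 0.246, 0.488, 0.593 and 1.24 CPM in the vehicle arm and 0.393, 0.159, 0.550, 0.0316 and 0.326 CPM in the oxaliplatin arm (-1.20 ± 0.60, adjusted p = 0.576). Kif20a, a motor of cytokinesis, was 0.451, 0.285, 1.68 and 1.36 CPM in the vehicle arm and 0.393, 0.555, 0.650, 0.568 and 0.386 CPM in the oxaliplatin arm (-0.91 ± 0.47, adjusted p = 0.598). Cenpa was 1.35, 2.03, 2.06 and 1.78 CPM in the vehicle arm and 1.02, 1.43, 1.50, 1.64 and 0.801 CPM in the oxaliplatin arm (-0.51 ± 0.27, adjusted p = 0.601), and its arms overlapped in 3 oxaliplatin mice. Nusap1 was 0.984, 0.529, 1.71 and 1.78 CPM in the vehicle arm and 0.229, 1.19, 0.400, 1.20 and 0.594 CPM in the oxaliplatin arm (-0.80 ± 0.49, adjusted p = 0.679). Bub1b was 0.123, 0.285, 1.05 and 0.452 CPM in the vehicle arm and 0.590, 0.714, 0.350, 0.316 and 0.534 CPM in the oxaliplatin arm and was the 1 tested mitotic gene with a change above 0 (0.05 ± 0.52, adjusted p = 0.994). The highest library was vehicle mouse 4 for 14 of 22 mitotic genes and vehicle mouse 3 for 6.

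**Figure D4:**
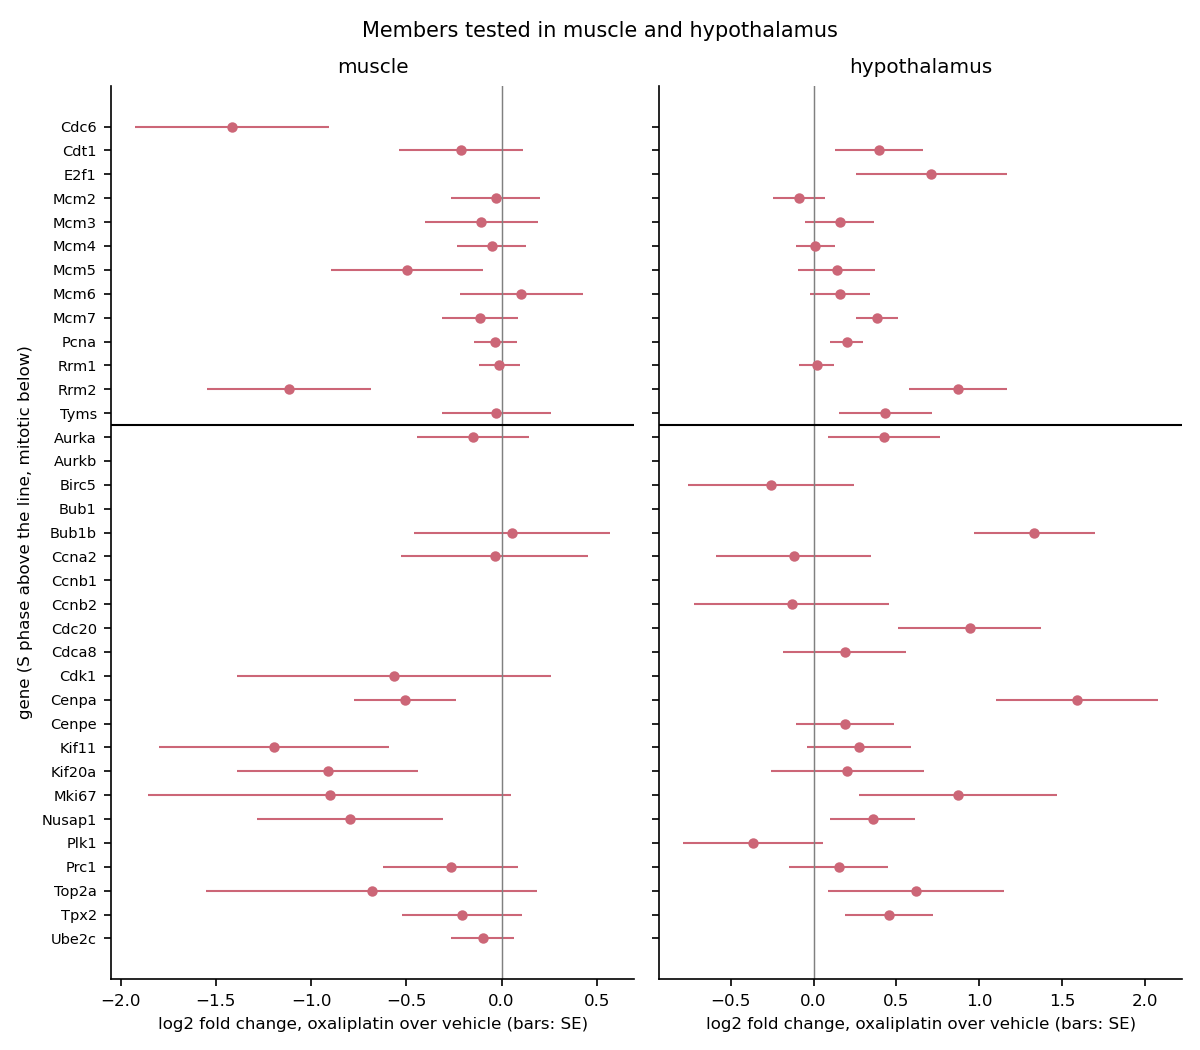
Log2 fold change with oxaliplatin for each member tested (x axis, bars are SE) in muscle and hypothalamus, with S phase genes above the line. Muscle points scatter at or left of 0, and 11 of 12 hypothalamic S phase points lie right of 0. Members without a point did not pass the count filter.

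Vehicle mice 3 and 4 of muscle also stood apart in neutrophil and myeloid genes. The 8 neutrophil and marrow myeloid genes summed to 1.64, 2.30, 2.55, 2.59 and 0.772 CPM with oxaliplatin and 1.39, 0.570, 116 and 94.1 CPM with vehicle. Mpo, a granule enzyme of marrow precursors, was 0, 0, 16.5 and 20.7 CPM with vehicle and at most 0.0328 CPM with oxaliplatin, and Ngp, a granule protein, was 0, 0, 29.3 and 39.1 CPM with vehicle and at most 0.252 CPM with oxaliplatin. Fibroblast and adipocyte progenitor genes were also highest in these libraries, at 477, 574, 1049 and 1626 CPM in vehicle mice. B cell genes (8 markers) summed to 0.361, 0.317, 0.700, 0.252 and 0.237 CPM with oxaliplatin and 2.25, 1.71, 5.55 and 4.32 CPM with vehicle, and vehicle mice 3 and 4 were again the highest. The arms were apart and lower in 5 of 8, against 1.62% of all genes. These genes rest on few counts, and 0 of the 8 passed the count filter. The part of these cells in the level of the members was not tested.

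Without vehicle mice 3 and 4, an alternative chosen after seeing the data, 9 of 13 tested mitotic genes had a change above 0, against 1 of 13 with all libraries. The vehicle mice left out had the highest mitotic set levels of the tissue, and those kept had the lowest. A shift of mitotic genes above 0 therefore follows from the choice, and the shares below do not test it. The edgeR test called 0 members, against 0.177% of 15261 tested genes (0.138% higher, 0.0393% lower), and the arms were apart and higher in 5 mitotic genes, against 8.74% of all genes, and apart and lower in 0 members, against 8.43%. Mki67 gave 3.95 ± 0.97, adjusted p = 0.115 and Top2a 3.25 ± 0.82, adjusted p = 0.126, with 2 vehicle libraries at 0 to 2 counts of Mki67. The median fitted change was 0.45 for 13 tested mitotic genes and 0.18 for 12 S phase genes, against 0.02 over all tested genes.

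**Figure D5:**
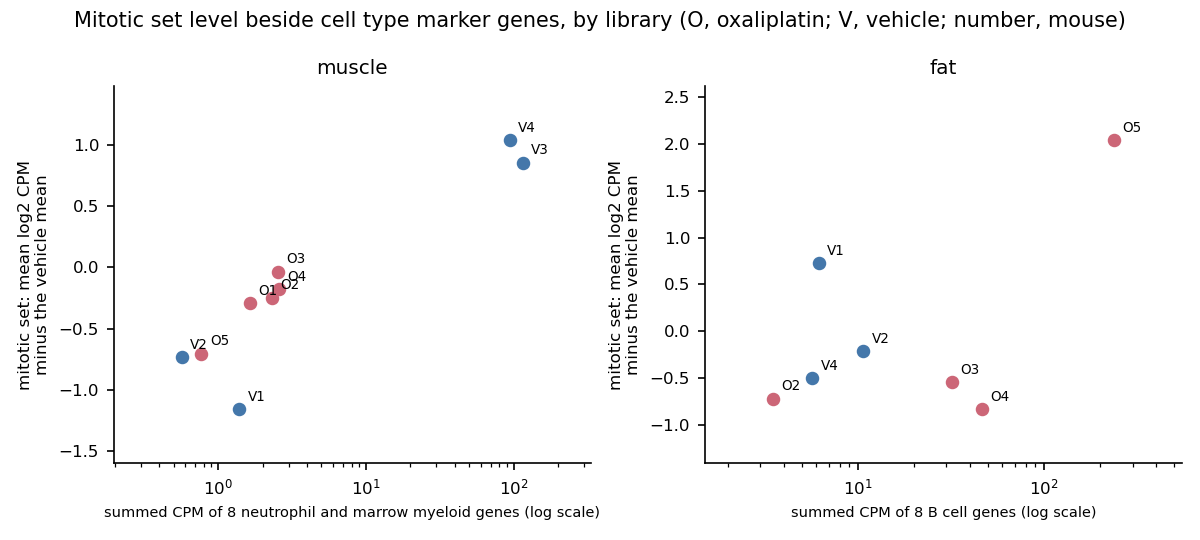
Level of the 22 mitotic genes (y axis, mean log2 CPM minus the vehicle mean) against summed marker genes (x axis, log scale) in muscle (8 neutrophil and marrow myeloid genes) and fat (8 B cell genes). O and V with a number stand for oxaliplatin and vehicle mice. In muscle V3 and V4 lie at the upper right, at 116 and 94.1 CPM, and in fat O5 does, at 238 CPM.

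In hypothalamus, most members were slightly higher with oxaliplatin, and 5 were higher in every oxaliplatin library than in every vehicle library. The edgeR test called 0 of 12 tested S phase genes and 0 of 17 tested mitotic genes, against 0.148% of all 18941 tested genes. At an unadjusted p under 0.05, 2 S phase genes (Mcm7, Rrm2) and 2 mitotic genes (Bub1b, Cenpa) were higher and none lower, where 6.2% of all tested genes were higher and 4% lower. DESeq2 called 1 member, Bub1b, against 1.43% of the genes it tested, and limma-voom 0, against 0.0581%. The difference of mean log2 CPM was above 0 in 12 of 13 S phase genes (median 0.20) and 18 of 22 mitotic genes (median 0.35), where 50.8% of all genes were above 0. The fitted change was above 0 in 11 of 12 and 13 of 17 tested genes, where 52% of all tested genes were. The arms were apart in Mcm7, Pcna, Rrm2, Bub1b and Cenpa, against 5.05% of all genes higher and 3.88% lower.

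Mcm7 was 13.2, 12.7, 10.9 and 10.8 CPM with oxaliplatin and 9.77, 8.63 and 9.00 CPM with vehicle (0.38 ± 0.13, adjusted p = 0.388). Rrm2 was 1.57, 2.22, 1.65 and 2.63 CPM with oxaliplatin and 0.854, 1.01 and 1.44 CPM with vehicle (0.87 ± 0.30, adjusted p = 0.389), and Pcna 21.3, 20.2, 19.2 and 18.6 CPM with oxaliplatin and 17.6, 18.3 and 16.0 CPM with vehicle (0.20 ± 0.10, adjusted p = 0.534). The gap between the arms was small in all 3, and none overlapped. E2f1 was 7.12, 1.81, 3.30 and 3.29 CPM with oxaliplatin and 3.49, 1.83 and 1.77 CPM with vehicle, with mouse 2 above the rest and overlap in the others (0.71 ± 0.45, adjusted p = 0.616). Mcm2, the 1 S phase gene below 0, was 4.55, 5.22, 4.80 and 5.30 CPM with oxaliplatin and 4.54, 5.25 and 6.05 CPM with vehicle (-0.09 ± 0.16, adjusted p = 0.858). Mcm5 was 2.90, 2.83, 2.77 and 3.12 CPM with oxaliplatin and 1.91, 3.56 and 2.43 CPM with vehicle (0.14 ± 0.23, adjusted p = 0.842), where the oxaliplatin mice lay inside the vehicle range. Cdc6 was below the filter, at 0.282, 0.575, 0.307 and 0.205 CPM with oxaliplatin and 0.137, 0.180 and 0.221 CPM with vehicle.

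Bub1b and Cenpa had the smallest p of the mitotic set. Bub1b was 1.61, 2.96, 3.03 and 1.81 CPM with oxaliplatin and 1.40, 0.611 and 0.775 CPM with vehicle (1.33 ± 0.37, adjusted p = 0.308; DESeq2 adjusted p = 0.0466). Cenpa was 1.73, 1.03, 0.614 and 0.658 CPM with oxaliplatin and 0.478, 0.216 and 0.295 CPM with vehicle (1.59 ± 0.49, adjusted p = 0.351). Both rest on few counts, and in each the lowest oxaliplatin mouse stood just above the highest vehicle mouse. Cdc20, the activator of the anaphase-promoting complex, was 1.81, 1.27, 0.730 and 0.945 CPM with oxaliplatin and 0.615, 0.899 and 0.332 CPM with vehicle (0.94 ± 0.43, adjusted p = 0.497). Tpx2, a spindle assembly factor that activates Aurora A, was 1.81, 2.30, 1.46 and 2.26 CPM with oxaliplatin and 1.44, 1.73 and 1.11 CPM with vehicle (0.46 ± 0.27, adjusted p = 0.58). Vehicle mouse 2 lay within the oxaliplatin range of both.

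Mki67 was 0.845, 0.781, 0.960 and 3.78 CPM with oxaliplatin and 0.820, 1.11 and 0.664 CPM with vehicle, with mouse 5 apart from the other 6 libraries (0.87 ± 0.59, adjusted p = 0.635). Top2a was 0.402, 1.36, 0.346 and 1.36 CPM with oxaliplatin and 0.478, 0.539 and 0.664 CPM with vehicle, high in mice 3 and 5 only (0.62 ± 0.53, adjusted p = 0.699). Cdk1 and Ccnb1 were below the filter, Cdk1 at 0.0805, 0.329, 0.499 and 0.247 CPM with oxaliplatin and 0.171, 0.0719 and 0.221 CPM with vehicle and Ccnb1 at 0.0805, 0.534, 0.307 and 0.205 CPM with oxaliplatin and 0.0683, 0.216 and 0.148 CPM with vehicle. Some members leaned the other way. The kinase Plk1 was 0.684, 0.822, 0.269 and 0.740 CPM with oxaliplatin and 0.683, 1.11 and 0.627 CPM with vehicle (-0.37 ± 0.42, adjusted p = 0.774), Birc5 0.443, 0.329, 0.269 and 0.863 CPM with oxaliplatin and 0.683, 0.719 and 0.295 CPM with vehicle (-0.26 ± 0.50, adjusted p = 0.873), Ccna2, cyclin A2, 0.523, 1.31, 0.346 and 1.32 CPM with oxaliplatin and 1.09, 1.01 and 0.738 CPM with vehicle (-0.12 ± 0.47, adjusted p = 0.941), and Ccnb2 0.241, 0.575, 0.0768 and 0.452 CPM with oxaliplatin and 0.478, 0.360 and 0.258 CPM with vehicle (-0.13 ± 0.59, adjusted p = 0.947). The arms of these 4 genes overlapped widely.

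Endothelial genes moved with the arms in hypothalamus. The 8 endothelial markers lay 0.77, 0.83, 0.76 and 0.50 above the vehicle mean (log2) in oxaliplatin mice and at -0.06, 0.05 and 0.01 in vehicle mice, and Pecam1, an endothelial adhesion protein, rose (1.49 ± 0.18, adjusted p = 0.0212). Erythroid genes lay at -1.78, -1.94, -0.85 and 1.26 in oxaliplatin mice, with mouse 5 alone above the vehicle mean, and microglial genes at -0.95, -1.02, -0.43 and -0.03. The 8 astrocyte genes lay at -0.37, -0.13, -0.27 and -0.11 in oxaliplatin mice and -0.17, 0.11 and 0.06 in vehicle mice, with 3 of 8 apart and lower, against 3.88% of all genes. This list was mixed, with 3 of 8 genes above 0. At an unadjusted p under 0.05 in edgeR, 2 of its genes were higher and 4 lower, against 6.2% and 4% of all tested genes. Oligodendrocyte genes lay at -1.35, -0.42, -0.26 and -0.06 in oxaliplatin mice and 0.14, 0.03 and -0.17 in vehicle mice. Markers of tanycytes and ependyma, which line the third ventricle, lay between -0.25 and 0.13, and those of oligodendrocyte progenitors, the main cycling cell of adult brain, between -0.39 and 0.08, without separation of the arms. The part of these cell types in the members' levels was not tested. Without oxaliplatin mouse 5 the edgeR test called 0 members, against 3.49% of 18781 tested genes, and the arms were apart and higher in 6 S phase and 3 mitotic genes, against 12% of all genes. Mcm6, Tyms, Cdc6 and Aurka were apart only in this setting, and mouse 5 was the lowest of its arm in each. Their separation therefore follows from its removal, and the counts do not test a rise.

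The difference of the oxaliplatin effect between tissues was tested directly, in edgeR fits over the libraries of 2 tissues. The titles give the same mouse labels in each tissue, so libraries of 2 tissues can come from 1 mouse, and these fits treat them as independent. With the animal as a block, 0 members passed in each contrast, against 0.0159% of all tested genes in fat minus muscle and 0% in the contrasts with hypothalamus. For fat minus muscle, 0 of 35 members passed, against 0.239% of 18862 tested genes, with 5 members at an unadjusted p under 0.05 (17% of all tested genes). The smallest adjusted p was 0.0867, for Mcm7 (difference of log2 fold changes 1.34 ± 0.34), and Cdt1 gave 1.39 ± 0.41 (adjusted p = 0.122). For fat minus hypothalamus, 0 of 35 passed, against 0.311% of 20892, with 2 at an unadjusted p under 0.05 (19.7% of all tested genes), and Mcm7 gave 0.81 ± 0.29 (adjusted p = 0.166). For muscle minus hypothalamus, 0 of 33 passed, against 0.0689% of 17415, with 3 at an unadjusted p under 0.05 (9.33% of all tested genes). Cenpa gave -2.06 ± 0.53 (adjusted p = 0.149) and Rrm2 -1.95 ± 0.60 (adjusted p = 0.256). Mcm7 had the smallest p of the members in both contrasts with fat. Without fat oxaliplatin mouse 5, Mcm7 passed in fat minus muscle, where 8.64% of all tested genes did, and Cenpa, E2f1, Mcm7 and Nusap1 passed in fat minus hypothalamus, where 15.2% did. Fat oxaliplatin mouse 5 was the highest fat library for Cenpa, E2f1 and Nusap1, and the lowest of its arm for Mcm7. These calls therefore follow in part from its removal. Without muscle vehicle mouse 2, Rrm2 passed in muscle minus hypothalamus, where 0.178% of all tested genes did. That library had the lowest Rrm2 of all muscle libraries, so this call also follows in part from the removal.

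The 2 sets can also be set side by side within a library. In fat, oxaliplatin mice 2, 3 and 4 had S phase levels of -0.15, 0.12 and -0.04 against the vehicle mean (log2) and mitotic levels of -0.72, -0.55 and -0.84, and mouse 5 had 1.09 and 2.05. The vehicle mice of fat differed widely, with Mki67 at 35.6, 14.2 and 5.71 CPM in vehicle mice 1, 2 and 4. A set level below the vehicle mean of fat therefore need not lie below every vehicle mouse. Vehicle mouse 4 of fat lay below oxaliplatin mice 2, 3 and 4 in Mki67 (5.71 CPM) and Top2a (2.09 CPM). It lay above them in Aurka (2.42 CPM) and Nusap1 (2.20 CPM). The mitotic set includes the uncertain Ube2c, at 65.7 CPM in that vehicle mouse. In muscle, oxaliplatin mice had S phase levels of -0.06, -0.08, -0.20, -0.11 and -0.15 and mitotic levels of -0.29, -0.25, -0.04, -0.18 and -0.70. Vehicle mice of muscle had S phase levels of -0.28, -0.59, 0.22 and 0.66 and mitotic levels of -1.16, -0.73, 0.85 and 1.04, so the mitotic set spanned the wider range there. In hypothalamus, oxaliplatin mice had S phase levels of 0.36, 0.37, 0.29 and 0.16, all above the vehicle levels of -0.10, 0.02 and 0.08. Mitotic levels of 0.11, 0.65, 0.03 and 0.65 overlapped the vehicle levels of 0.08, 0.13 and -0.21.

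Per kilobase of exon, Pcna, Mcm7 and Mcm4 were among the 5 most abundant members in every tissue with vehicle, leaving Ube2c aside. In fat, vehicle levels were 9.00 CPM per kb for Pcna, 4.33 for Mcm7, 3.55 for Mcm4, 1.84 for Mki67 and 0.106 for Bub1, the lowest member. In hypothalamus they were 7.19 for Pcna, 3.96 for Mcm4, 0.0861 for Mki67 and 0.0136 for Bub1. In muscle they were 5.11 for Pcna, 4.34 for Rrm1, 0.127 for Mki67 and 0.0312 for Cenpe, the lowest.

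Inhibitors and p53-linked genes form the upstream arm of the pathway, and Cdkn1a stood apart from the members in all 3 tissues. Cdkn1a, which encodes p21, was 90.4, 40.4, 33.7, 33.0 and 125 CPM with oxaliplatin and 5.12, 6.06, 9.63 and 6.33 CPM with vehicle in muscle (3.25 ± 0.49, adjusted p = 0.0526). The library titled mouse 5 had the highest value. In fat it was 251, 201, 126 and 76.2 CPM with oxaliplatin and 10.5, 11.5 and 17.5 CPM with vehicle (3.63 ± 0.47, adjusted p = 0.0751), and in hypothalamus 55.1, 74.9, 38.9 and 13.3 CPM with oxaliplatin and 5.26, 7.16 and 7.41 CPM with vehicle (2.79 ± 0.60, adjusted p = 0.285). Every oxaliplatin library lay above every vehicle library in each tissue, and in none of them did the gene pass the edgeR test over all genes. DESeq2 called it in all 3 tissues and limma-voom in muscle (adjusted p = 0.0259). Within fat and hypothalamus, mouse 5 had the lowest Cdkn1a of the oxaliplatin arm and the highest Mki67.

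Btg2, an antiproliferative p53 target, was 48.8, 31.1, 35.1, 41.7 and 70.3 CPM with oxaliplatin and 21.0, 23.3, 26.3 and 26.5 CPM with vehicle in muscle (0.90 ± 0.21, adjusted p = 0.142), where the arms were apart (apart and higher in 1.81% of all genes). It gave 0.87 ± 0.30, adjusted p = 0.146 in fat and 0.52 ± 0.30, adjusted p = 0.584 in hypothalamus. Ccng1, cyclin G1, also induced by p53, gave 0.07 ± 0.14, -0.86 ± 0.44 and 0.24 ± 0.09 in muscle, fat and hypothalamus. In fat its highest library was vehicle mouse 4, at 321 CPM against 85.0 to 103 CPM elsewhere. Of the 13 p53-linked arrest genes, 11 were above 0 in muscle (median 0.32), 9 in fat (0.59) and 12 in hypothalamus (0.33), where 48.8%, 51.7% and 50.8% of all genes were. The edgeR test called 0 in each tissue. At an unadjusted p under 0.05 there were 3 of 12, 6 of 12 and 4 of 13 tested, all higher, where 4.8%, 13.4% and 6.2% of all tested genes were higher. DESeq2 called 2, 5 and 0, against 1.49%, 12.1% and 1.43% of the genes it tested. The antiproliferative Btg1 gave 0.70 ± 0.13, adjusted p = 0.0916 in fat and 0.35 ± 0.10, adjusted p = 0.347 in hypothalamus, Mdm2, the ligase that degrades p53, 0.51 ± 0.12, adjusted p = 0.114 in fat, the stress sensor Sesn1 1.36 ± 0.36, adjusted p = 0.223 in muscle, and the growth arrest gene Gadd45g 0.61 ± 0.19, adjusted p = 0.354 in hypothalamus.

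The other lists of the pathway gave 0 edgeR calls in every tissue. DESeq2 called Ccne2 and Dut in muscle, E2f3, E2f6, Uhrf1, Cdc25a, H2ax and H2bc4 in fat and Pole in hypothalamus, and limma-voom called none of these. Of all the genes it tested, DESeq2 called 1.49%, 12.1% and 1.43% in muscle, fat and hypothalamus. Of the 8 cyclins and kinases of G1 phase, Ccne2, cyclin E2, had a mean of 5.89 CPM in the vehicle arm and 3.89 CPM in the oxaliplatin arm in muscle (-0.60 ± 0.14, adjusted p = 0.15) with the arms apart (apart and lower in 1.62% of all genes), and gave -0.43 ± 0.23, adjusted p = 0.262 in fat. Ccnd1, cyclin D1, gave 0.38 ± 0.32 in muscle and 0.22 ± 0.11 in hypothalamus, Ccnd2 0.36 ± 0.15, adjusted p = 0.188 in fat, and the kinase Cdk6 0.70 ± 0.19, adjusted p = 0.308 in hypothalamus. Of the other inhibitors, Cdkn1c (p57) gave -0.37 ± 0.15 in muscle, and Cdkn1b (p27) 0.39 ± 0.15, adjusted p = 0.16 in fat and 0.14 ± 0.09, adjusted p = 0.62 in hypothalamus. In the list of 18 pocket proteins, E2F factors and DREAM subunits, the repressor E2f6 lay below 0 in all 3 tissues, at -0.50 ± 0.16, adjusted p = 0.311 in muscle, -1.06 ± 0.32, adjusted p = 0.128 in fat and -0.28 ± 0.10, adjusted p = 0.44 in hypothalamus. E2f7 gave 1.14 ± 0.41, adjusted p = 0.365 in muscle, E2f3 -0.71 ± 0.21, adjusted p = 0.126 in fat, and Lin54, the DREAM subunit that binds the CHR, 0.25 ± 0.12, adjusted p = 0.497 in hypothalamus.

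Among 32 other replication genes, 13 were above 0 in muscle (median -0.15), 21 in fat (0.11) and 19 in hypothalamus (0.07). Over all genes, 48.8%, 51.7% and 50.8% were above 0. Of the listed genes tested, 2 of 28, 3 of 32 and 5 of 29 had an unadjusted p under 0.05. In muscle 1 of the 2 was higher, and in fat and hypothalamus all were, where 4.8%, 13.4% and 6.2% of all tested genes were higher and 4.79% of those in muscle lower. Dut, which keeps uracil out of DNA, was 2.66, 2.32, 3.11 and 2.20 CPM in the vehicle arm and 1.11, 1.23, 1.30, 1.10 and 1.31 CPM in the oxaliplatin arm in muscle, with the arms apart (-1.09 ± 0.20, adjusted p = 0.0567). Cdc45, a part of the active helicase, was higher in every oxaliplatin muscle library (0.49 ± 0.19, adjusted p = 0.4) and gave 1.05 ± 0.36, adjusted p = 0.402 in hypothalamus. Pole, the leading strand polymerase, was 3.98, 3.99, 4.07 and 2.51 CPM with oxaliplatin and 1.40, 1.55 and 1.92 CPM with vehicle in hypothalamus (1.16 ± 0.24, adjusted p = 0.163), again with the arms apart. Of the 32 genes, 3 were apart and higher in hypothalamus and 3 apart and lower, against 5.05% and 3.88% of all genes. In muscle 1 was apart and higher and 1 apart and lower, against 1.81% and 1.62%. In fat, Uhrf1, which keeps methylation through replication, gave 1.51 ± 0.43, adjusted p = 0.122, and Chaf1b of the histone chaperone CAF-1 gave 1.01 ± 0.35, adjusted p = 0.145, both with the arms apart. There 3 of the 32 genes were apart and higher, near the 8.96% of all genes, and 0 apart and lower, against 9.62%.

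Among 41 other mitotic genes, 39 of them in the muscle table and 40 in the hypothalamus table, 9 were above 0 in muscle (median -0.26), 24 in fat (0.06) and 31 in hypothalamus (0.20). Over all genes, 48.8%, 51.7% and 50.8% were above 0. Of the listed genes tested, 1 of 17 in muscle (lower), 0 of 34 in fat and 2 of 26 in hypothalamus (higher) had an unadjusted p under 0.05. Of all tested genes, 4.79% were lower in muscle, 13.4% higher and 12.7% lower in fat, and 6.2% higher in hypothalamus. Cdca3 and Spc24 gave -0.99 ± 0.40, adjusted p = 0.434 and -0.54 ± 0.26, adjusted p = 0.543 in muscle, Incenp and Mad2l1 0.59 ± 0.31, adjusted p = 0.259 and 0.66 ± 0.42, adjusted p = 0.332 in fat, and Cks1b and Nek2 0.87 ± 0.34, adjusted p = 0.451 and 0.94 ± 0.41, adjusted p = 0.485 in hypothalamus. Like the mitotic members, this list lay below the vehicle mean in fat oxaliplatin mice 2, 3 and 4 (levels of -0.42, -0.45 and -0.57) and above it in mouse 5 (1.76). In muscle it stood at 0.62 and 0.63 in vehicle mice 3 and 4, against -0.71 and -0.54 in vehicle mice 1 and 2.

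The 11 checkpoint genes of the DNA damage response had 4 above 0 in muscle, 8 in fat and 4 in hypothalamus. Over all genes, 48.8%, 51.7% and 50.8% were above 0. In fat the phosphatase Cdc25a was 17.9, 13.9, 14.8 and 11.5 CPM with oxaliplatin and 7.40, 7.21 and 6.15 CPM with vehicle (1.07 ± 0.19, adjusted p = 0.0878) and Trp53, p53 itself, gave 0.48 ± 0.15, adjusted p = 0.131, both with the arms apart. In all, 2 of the 11 were apart and higher in fat, against 8.96% of all genes. In muscle the kinases Wee1 and Chek2 gave -0.64 ± 0.31 and -0.41 ± 0.20, and in hypothalamus Atm and Wee1 gave -0.24 ± 0.12 and -0.18 ± 0.11. Of 12 histone genes, H2ax, whose product marks DNA breaks, was 24.4, 22.5, 17.4 and 30.3 CPM with oxaliplatin and 16.7, 11.1 and 13.0 CPM with vehicle in fat (0.80 ± 0.23, adjusted p = 0.122) and H2bc4 was lower in every oxaliplatin fat library (-0.74 ± 0.22, adjusted p = 0.124). Of the 12, 1 was apart and higher in fat and 2 apart and lower, against 8.96% and 9.62% of all genes. H1f4 gave 0.24 ± 0.13 in muscle and -0.30 ± 0.13 in hypothalamus, H4c8 0.45 ± 0.32 in muscle and H1f2 0.53 ± 0.23 in hypothalamus.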

How the data were processed

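RNA-seq libraries of muscle, fat and hypothalamus (23 in all) were read from 1 table per tissue of expected counts per gene, which the authors deposited without normalization. STAR 2.5.1a, Partek and DESeq2 are named in the submitters' processing notes, without their roles. Of the values, 45.7%, 41.4% and 49.1% were not whole in muscle, fat and hypothalamus, so they were rounded, and no gene summed to under 10. The sources used here do not say how strand was used. Gene starts equalled those of GENCODE M21 (GRCm38) for 99.5%, 99.5% and 99.4% of matched genes. Genes were filtered with filterByExpr (minimum count 10, minimum total 15) and scaled by TMM. Each tissue was fitted separately with the quasi-likelihood test of edgeR 4.0.16 (R 4.3.3) and p-values were adjusted over all tested genes at 0.05. DESeq2 1.42.0, limma-voom 3.58.1, other filters, a fit over all tissues, replicate numbers as a block and the leaving out of libraries were alternatives. Scripts were tested on simulated data, with the changed genes drawn from those with a mean of at least 1 CPM. There the edgeR test called 71.9%, 10.9% and 69.2% of genes given a log2 change of 1 in size in muscle, fat and hypothalamus. For a log2 change of 2 in size it called 95.5%, 74.5% and 91.4%. The absence of calls in fat therefore says little about changes near the smaller size. The rates do not cover members below 1 CPM, such as Cdk1 and Kif11 in muscle, for which no rate was simulated. Log2 CPM levels used a prior count of 2.

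The members and all gene lists were chosen with earlier results of these data known. Described in every library were members called, the 4 of smallest p per direction and set, and 10 fixed genes (Mki67, Top2a, Cdk1, Ccnb1, Mcm2, Mcm5, Pcna, Rrm2, Cdc6 and E2f1), and from each further pathway list the 2 of smallest p. Members named only because they were called without certain libraries were chosen after their values were seen.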

Additional observations from a re-analysis of the deposited data

Results flagged for a closer look

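For each member and for the level of each set, a group of 4 or 5 libraries was searched for 1 library far from the rest, by the gap to its nearest neighbour over the whole range. This marked 26 of 148 groups, and the groups are not independent because members share libraries. The cutoff marks about 1 in 20 groups of normally distributed values, which CPM need not be. The vehicle groups of fat and hypothalamus, with 3 libraries each, were not searched. Fat oxaliplatin mouse 5 was the high library in 23 of the 26. Its mitotic set level was 2.05 against -0.839 to -0.548 in mice 2, 3 and 4. Among cyclins, kinases and proliferation markers its levels were 106 CPM for Mki67, 33.6 for Top2a, 13.8 for Ccna2, 4.11 for Ccnb1, 4.52 for Ccnb2, 5.81 for Cdk1, 4.93 for Aurka and 5.93 CPM for Plk1. For genes of the spindle and centromere they were 6.75 CPM for Birc5, 2.93 for Bub1, 6.87 for Cdca8, 10.8 for Cenpa, 10.4 for Cenpe, 10.7 for Kif11, 6.22 for Nusap1, 14.7 for Prc1 and 9.74 CPM for Tpx2. For S phase genes they were 12.4 CPM for E2f1, 19.7 for Mcm2, 22.7 for Mcm4, 18.4 for Mcm5 and 13.3 CPM for Rrm2.

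The 3 other cases were spread over tissues. Mki67 was 3.78 CPM in hypothalamus oxaliplatin mouse 5, against 0.781 to 0.96 CPM in the rest of the arm. Tyms was 2.99 CPM in muscle vehicle mouse 4, against 1.46 to 1.68 CPM. Bub1 was 0.0316 CPM in muscle oxaliplatin mouse 4 and 0 in the other 4 oxaliplatin libraries, a difference of 1 count.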

How the results depend on the processing

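With DESeq2, 2 members were called in fat (Cdt1 and Mcm7) and 1 in hypothalamus (Bub1b), and over all genes 248, 2377 and 266 in muscle, fat and hypothalamus, where edgeR called 24, 0 and 28. Limma-voom called 13 genes in muscle and 11 in hypothalamus, and no count filter gave 42 in muscle. A single fit over all tissues called 88, 2908 and 55 genes and 4 members in fat (Cdt1, Mcm7, Pcna and Ube2c). With muscle mouse 5 taken as vehicle, 0 genes were called there, and the medians were -0.07 (S phase) and 0.07 (mitotic). Medians here are of differences of mean log2 CPM over all 13 or 22 genes, not of fitted changes over tested genes. Leaving out 1 library at a time gave calls of 2 to 17 genes (muscle), 0 to 4967 (fat) and 0 to 656 (hypothalamus), and of 0 to 4 members in fat. The same gave medians of -0.13 to 0.08 (S phase) and -0.68 to 0.04 (mitotic) in muscle, 0.01 to 0.43 and -0.84 to 0.39 in fat, and 0.18 to 0.29 and 0.21 to 0.45 in hypothalamus, and 0 to 1, 0 to 4 and 0 to 1 members for fat minus muscle, fat minus hypothalamus and muscle minus hypothalamus. Without fat oxaliplatin mouse 5 and vehicle mouse 4, 9 members and 4087 genes were called, the medians were -0.057 (S phase) and -0.94 (mitotic), and the changes of Mki67 (-1.64), Top2a (-1.89), Cdk1 (-1.70), Ccnb1 (-2.50) and Rrm2 (-1.38) turned negative. Without muscle vehicle mice 3 and 4 the medians were 0.23 and 0.48. Both settings that left out 2 libraries were chosen after seeing the data, so the direction of the mitotic shift follows in part from the choice. The median of DESeq2's own fitted changes of mitotic genes in fat was 0.56. The cause of these shifts was not tested. Same-numbered mice of the arms are different animals, and their deviations correlated at 0.05, -0.09, -0.18 and 0.17 in muscle, -0.18 and -0.28 in fat, and 0.03 and -0.01 in hypothalamus, so the numbers do not pair them. With replicate numbers as a block, 3 genes were called in muscle and 37 in hypothalamus, and the medians were -0.049 for S phase genes in fat and 0.014 for mitotic genes in hypothalamus. Of 59 values followed (a gene in a tissue), none was called, so no call could be lost. Among their 1017 alternatives, 30 gained a call of the same sign and 5 of the other sign, and 83 had the other sign. The block changed 1 call, Cdkn1a in hypothalamus (adjusted p = 0.0241). Depth limits the rarest members: in muscle up to 7 of 35 had 0 counts in a library.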
